A study of Mus musculus with 3 samples.

Results

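The untreated mouse ovary was read here from the green (Cy3) channel of 3 spotted mouse genome arrays. On each array that channel held ovary RNA of C57BL/6 mice that received no treatment, the WT group. The red (Cy5) channel held RNA of 1 treated group: mice given cyclophosphamide (POF, a model of premature ovarian failure), or such mice that then received adipose-derived stem cells, by vein in the ADSC-iv group and by injection of each ovary in the ADSC-ovary group. Ovaries were taken 1 week after treatment. The arrays are named below by the treated group in their red channel, but every level is that of the untreated ovary unless Cy5 is named. The labels give neither the age nor the number of the mice, nor whether the same WT RNA was used 3 times, so the SD over arrays may hold technical error only, and no p-value was computed.

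A gene counted as a member when at least 1 of its probes stood above background, by more than 2 SDs of the local background, on all 3 arrays. Of 19518 named genes on the array, 8025 (41.1%) did, through 9133 of 24392 named probes. Brightness is the log2 of the spot median minus the background median. The arrays were brought to a common median, and the passing probes of a gene were averaged. The members spanned 7.30 to 15.42, a 279-fold range, around a median of 10.26 (1230 intensity units). The brightest 10.0% (803 genes, the top group) began at 12.46 and the dimmest 10.0% (803 genes, the bottom group) ended at 8.48.

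The ovary is built of follicles, in which an oocyte is wrapped in granulosa cells and, outside a basement membrane, theca cells. After ovulation the follicle wall turns into the corpus luteum, which makes progesterone. Theca cells turn cholesterol into androgens and granulosa cells turn these into oestrogens, while inhibin and activin from granulosa cells act on the pituitary and on neighbouring cells. Stroma, vessels, smooth muscle and macrophages fill the space between follicles, and the surface epithelium covers the organ. In whole-organ RNA, few cells of a type and little RNA per cell cannot be told apart.

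A spot's brightness depends on the probe as well as on the amount of transcript. In 505 (53.3%) of the 948 members with more than 1 passing probe, the probes of the same gene were 2-fold or more apart, with a median SD between probes of 0.73, against an SD of 1.48 between the means of all members. The probes of Prdx2, a peroxiredoxin, read 9.25 and 14.61, and those of the metallothionein gene Mt1 read 8.53 and 13.80. A single gene's place in the order of brightness is therefore not its place in the order of transcript amounts, and the account below rests on lists of genes. A list was called bright when the median of its members lay 1 or more log2 units above the median of all members (2-fold), dim when it lay 1 or more below, and was not called with under 5 members. The probes of close paralogs (Hsd3b, H2, Gst, globin, actin and tubulin genes) may bind each other's transcripts.

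The 3 arrays agreed closely in this channel. Over the 8025 members the log2 values of each pair of arrays correlated with r of 0.98, across genes, which are not independent replicates. The median SD over arrays was 0.15, or 11% of the level, and it was 0.19 in the dimmest 20% of members and 0.14 in the brightest. On each array, 38.9% to 42.5% of named probes were above background, and the POF array was the dimmest, with a median of 1074 units before scaling against 1376 and 1324. None of 768 blank spots was above background on any array. Other spots without a gene were not all dark. Of 48 spots named 50%DMSO, 45 were above background on all 3 arrays, and of 336 named Empty, 102 were on at least 1. The 48 spots for each of 4 mouse control genes (ACTB, GAPD, LDHA and RPL5) repeated with an SD of 0.13 to 0.27 within an array. The control named Y3, with 47 of its 48 spots above background, had SDs of 1.28 to 1.45. None of the 11 Y-linked names was above background on all 3 arrays. The male-specific genes Eif2s3y and Jarid1d passed on 1 array each.

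**Figure D1:**
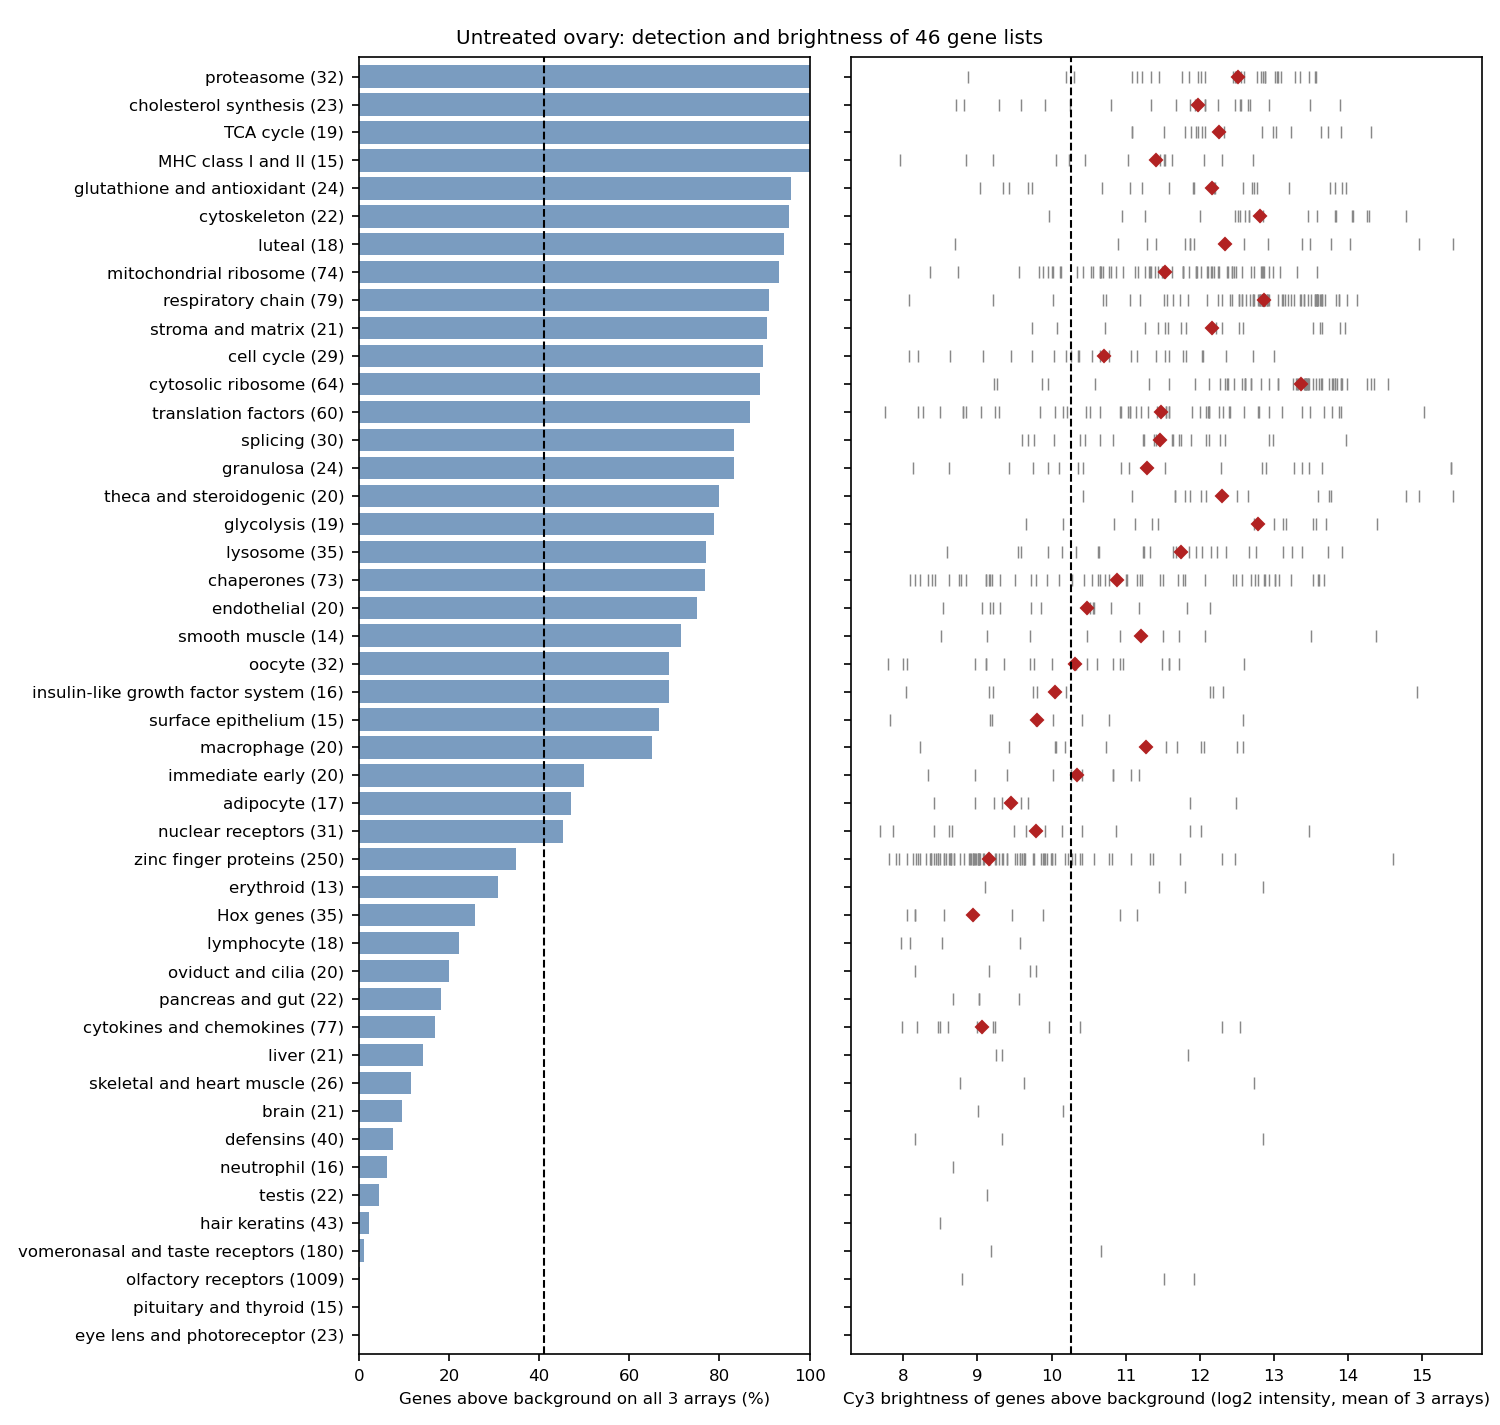
Detection and brightness of 46 gene lists in the untreated ovary, with the number of genes on the array in brackets. Left, bars give the percentage of a list above background on all 3 arrays, and the dashed line marks the 41.1% of all named genes; right, each tick is a member's log2 intensity (mean of 3 arrays), diamonds are list medians for lists of 5 or more members, and the dashed line is the median of all members, 10.26. Lists of energy metabolism and of the ribosome stand at the upper right, and lists of other tissues at the bottom have few ticks.

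Steroid and inhibin genes led the order of brightness. Of the 20 brightest members, 17 carry a gene name and 3 a clone or predicted name. The brightest was Hsd3b1, the enzyme that makes progesterone from pregnenolone, with values of 15.43, 15.55 and 15.30 on the POF, ADSC-iv and ADSC-ovary arrays. Inhba, the beta subunit of activin A and inhibin A, read 15.51, 15.39 and 15.28, and Inha, the alpha subunit of the inhibins, read 15.30, 15.48 and 15.38. The ranges of these 3 genes overlapped on the arrays, so their order is not settled beyond their spread. Their means were 5.12 to 5.16 above the median member.

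The next steroid enzymes were close behind. Cyp11a1, which cuts the side chain of cholesterol in the first and rate-limiting enzymatic step, read 15.00, 15.04 and 14.85. Cyp17a1, the theca enzyme that turns progestins into androgens, read 14.68, 14.98 and 14.71. Alas1, the first enzyme in the making of haem, which every cytochrome P450 carries, read 14.62, 14.84 and 14.45. The brightness of Cyp11a1 and Cyp17a1 overlapped, as did that of Cyp17a1 and Alas1.

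Most other named genes among the 20 brightest were of more general use. They included the elongation factor Eef1a1 (15.03 ± 0.06; here and below the mean and SD over 3 arrays), the ubiquitin gene Ubb (14.98 ± 0.04) and cytoplasmic actin Actb (14.79 ± 0.05). Igfbp7, a secreted protein that binds insulin-like growth factors weakly, stood at 14.93 ± 0.03, with the smallest SD of the 20. The mitochondrial genome gave mt-Nd4 (14.72 ± 0.09) and mt-Nd1 (14.57 ± 0.21), both subunits of respiratory complex I. Aldh2, a mitochondrial aldehyde dehydrogenase, stood at 14.47 ± 0.20, Fkbp4, a co-chaperone of steroid receptors, at 14.43 ± 0.15, and Dynlt1, a dynein light chain, at 14.39 ± 0.18. The zinc finger gene Zfp764 stood at 14.60 ± 0.16, far above the rest of its family. Clone names made up the remaining places, among them 4921521F21Rik (now Akr1cl, an aldo-keto reductase, 14.62 ± 0.07) and 4930583H14Rik (now Mgarp, a mitochondrial protein of steroid-making cells, 14.44 ± 0.10).

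**Figure D2:**
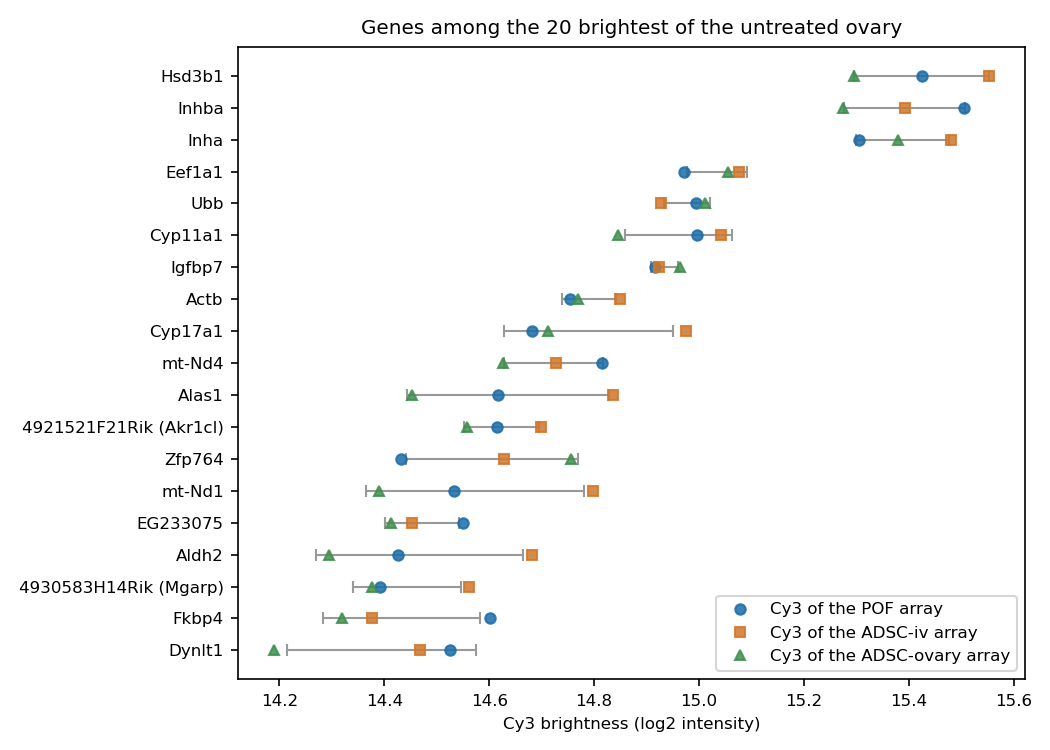
Members of the untreated ovary among the 20 brightest, 19 of them shown. Each point is the Cy3 log2 intensity on 1 array after scaling to a common median (circle POF, square ADSC-iv, triangle ADSC-ovary), and bars are the mean ± SD of the 3 arrays; the names in brackets are current symbols. Hsd3b1, Inhba and Inha overlap at the top, and neighbours further down the order mostly overlap too.

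The list of theca and steroid-making genes had 16 of 20 genes above background (80%) and a median 2.01 ± 0.15 above that of all members, 4.03-fold. Of the 16, 8 were in the top group and none in the bottom group. After Hsd3b1, Cyp11a1 and Cyp17a1 came Aldh1a1, which makes retinoic acid (13.77 ± 0.08), and Fdx1, the ferredoxin that feeds electrons to Cyp11a1 (13.74 ± 0.12). Star, which moves cholesterol into mitochondria, stood at 11.87 ± 0.13. Lhcgr, the receptor for luteinising hormone, stood at 11.80 ± 0.18, and Nr5a1, the nuclear receptor that switches steroid genes on, at 12.02 ± 0.18. Insl3, a theca and Leydig cell hormone, was near the bottom of the list at 11.08 ± 0.14. Gli1 and Ptch1, targets of hedgehog signalling in theca cells, were not above background on all 3 arrays, and neither were Hsd3b6 and Srd5a1.

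Por, the reductase that supplies electrons to Cyp17a1 and Cyp19a1, was the dimmest and least steady member of that list. It read 10.18, 11.29 and 9.80 on the POF, ADSC-iv and ADSC-ovary arrays, a 2.79-fold range. The ADSC-iv array was the high one. The other members of the list had SDs of 0.20 or less.

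The luteal list had 17 of 18 genes above background, with a median 2.07 ± 0.05 above all members. Sfrp4, a secreted modulator of Wnt signalling (14.02 ± 0.21), and Akr1c18, which inactivates progesterone (13.77 ± 0.24), followed Hsd3b1 and Cyp11a1. Next was Hsd17b7, an enzyme of cholesterol synthesis that also acts on oestrone (13.49 ± 0.28). The luteal and the steroid-making lists share Hsd3b1, Cyp11a1, Star and Lhcgr, so their medians are not independent. Sgk (now Sgk1), a kinase, stood at 10.90 ± 0.09 and Abcb1b, a drug efflux pump, at 8.69 ± 0.07. Oxtr, the oxytocin receptor, was not above background on all 3 arrays.

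The granulosa list had 20 of 24 genes above background and 8 of them in the top group, with a median 1.04 ± 0.09 above all members. That is close to the limit for a bright list: the value was 0.85 without the POF array, 0.95 with normexp background correction, 0.84 when a spot flag of 100 was required and 0.41 when undetected genes were placed at the floor. Below Inhba and Inha stood Hsd17b1, which makes oestradiol from oestrone (13.65 ± 0.04), and Nr5a2, a nuclear receptor needed for ovulation (13.48 ± 0.13). Fst, which binds and blocks activin, stood at 13.28 ± 0.14. Cyp19a1, the aromatase, read 11.21, 10.95 and 10.96, and Fshr, the receptor for follicle-stimulating hormone, read 10.78, 10.95 and 11.09, so both lay within 1 log2 unit of the median member. At the low end were Esr2, the oestrogen receptor of granulosa cells (8.61 ± 0.17), and Ihh, the hedgehog ligand (8.13 ± 0.28).

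4 granulosa genes did not pass. Amh, the hormone of small growing follicles, was above background on no array. Foxl2, the transcription factor that keeps granulosa cell identity, and Inhbb, the beta subunit of activin B and inhibin B, passed on 2 arrays, and Ptger2, a prostaglandin receptor, on 1.

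The oocyte list was detected but not bright. Of 32 genes, 22 (68.8%) were above background, with a median 0.02 ± 0.08 above that of all members. Of the 22, 1 was in the top group and 3 in the bottom group, each of which holds 10.0% of all members. The median was 0.36 with print block medians, and -0.98, close to the limit for a dim list, with the 10 undetected genes at the floor. Padi6, a protein of the cytoplasmic lattices of the egg, was its brightest member with 12.75, 12.35 and 12.70. The egg coat genes Zp2 and Zp3 stood at 11.72 ± 0.15 and 11.59 ± 0.16, and 2410146L05Rik (now Ooep), of the subcortical maternal complex, at 11.58 ± 0.23. The oocyte growth factor gene Gdf9 read 10.27, 10.60 and 10.55, about at the median member. Nlrp5, of the same maternal complex as Ooep, and Astl, the protease that hardens the egg coat, were the dimmest at 7.99 ± 0.22 and 7.79 ± 0.04.

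Of the 10 oocyte genes that did not pass, 7 were above background on no array. The 10 held Bmp15, the partner of Gdf9, and the early oocyte factors Nobox, Sohlh1, Sohlh2 and Lhx8, as well as Ddx4, an RNA helicase of germ cells. The 5 brightest oocyte markers were above the median member on every array, in an order that changed between arrays, and Figla, Nlrp5 and Astl were below it on every array.

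**Figure D3:**
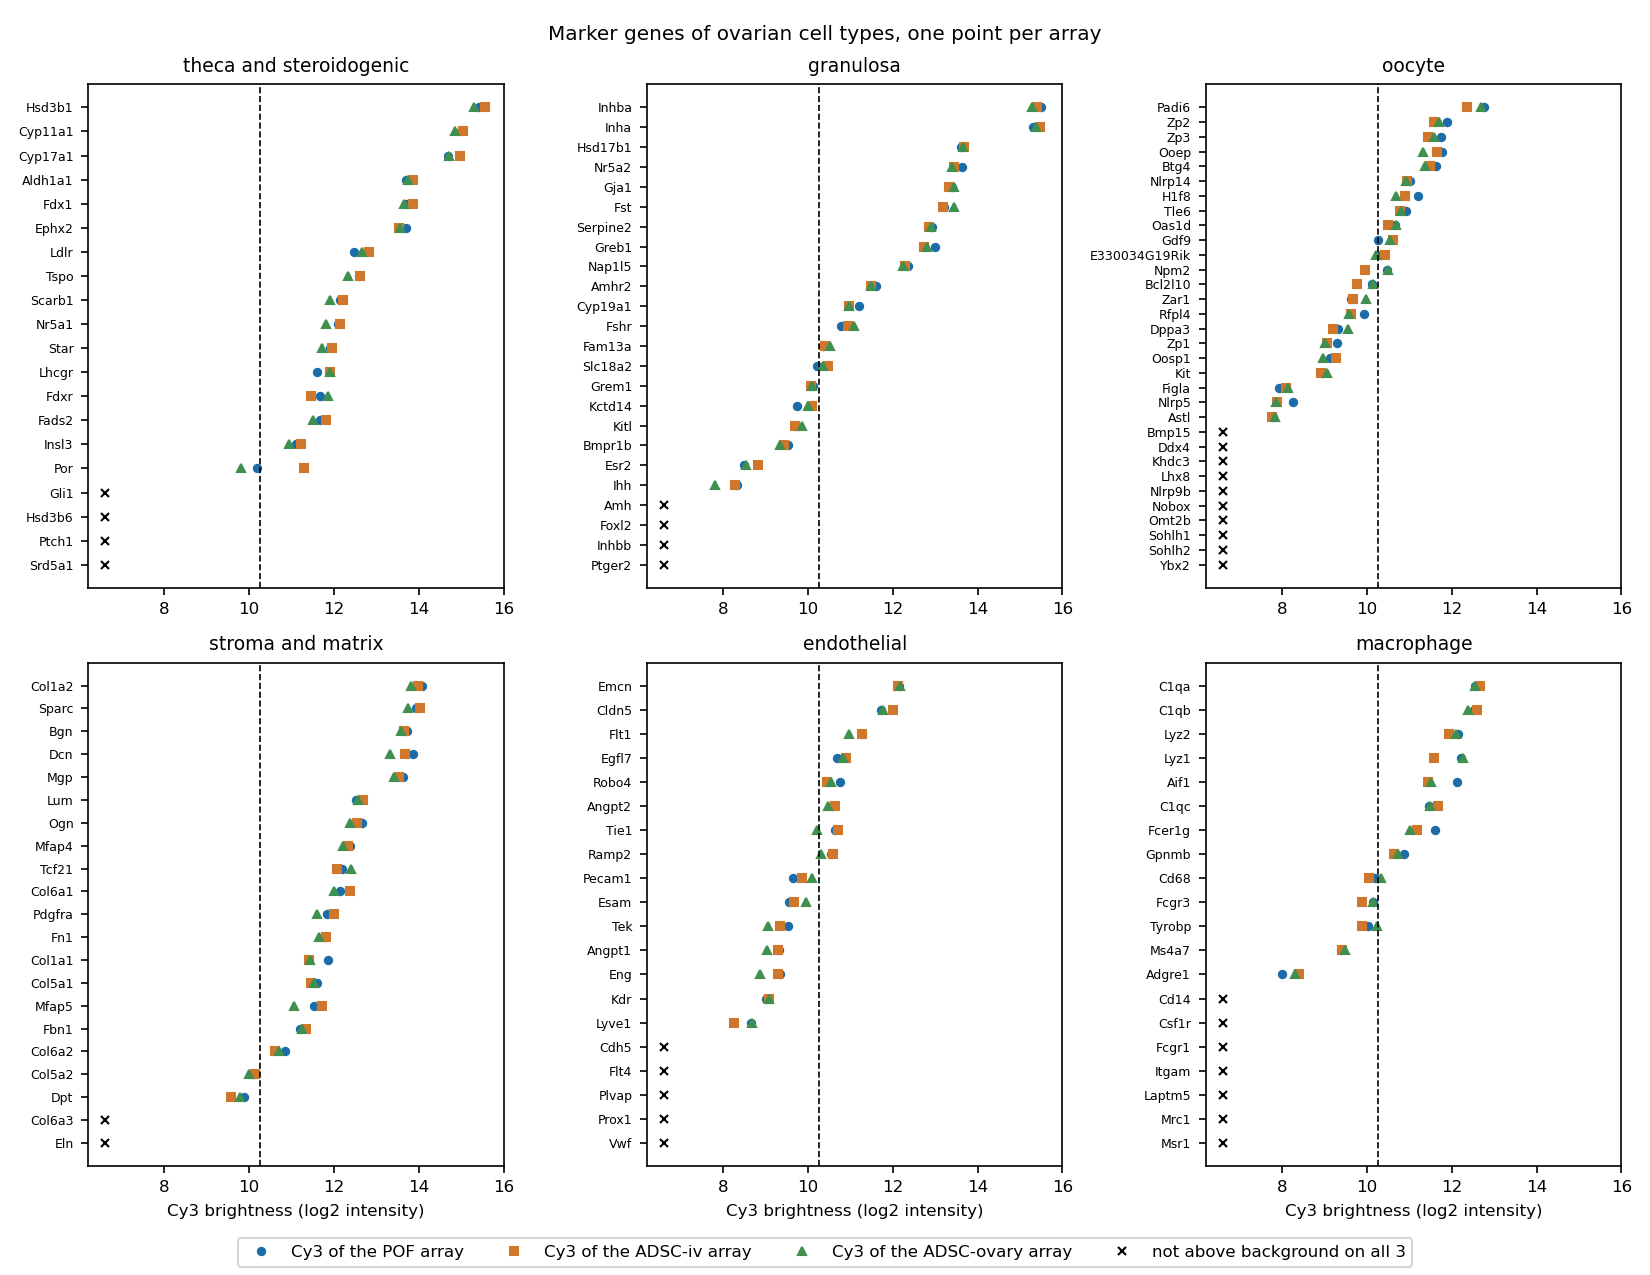
Marker genes of 6 ovarian cell types. Each point is the Cy3 log2 intensity of a member on 1 array, with symbols by array; crosses at the left edge mark genes not above background on all 3 arrays and have no level; the dashed line is the median of all members. Steroid and stromal markers lie mostly to the right of the line, and oocyte and endothelial markers on both sides of it.

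Stroma and matrix genes formed a further bright list, with 19 of 21 above background and a median 1.80 ± 0.06 above all members. Col1a2, a chain of type I collagen, stood at 13.96 ± 0.13, Sparc, a matrix glycoprotein, at 13.90 ± 0.14, and the small proteoglycans Bgn and Dcn at 13.65 ± 0.06 and 13.62 ± 0.28. Col5a2 and Dpt closed the list at 10.08 ± 0.07 and 9.74 ± 0.15. The brightest probe of Col5a2 read 3053 units, above the 1230 of the median member, so the place of Col5a2 depends on the averaging of probes. Smooth muscle genes (10 of 14 above background, median 0.94 ± 0.09 above all members) sat just under the limit for a bright list. They passed it without the POF array (1.07) or the ADSC-ovary array (1.03), at 3 background SDs (1.002) and with every probe of a gene averaged (1.06), and fell to 0.23 when a spot flag of 100 was required and -0.17 with undetected genes at the floor. Acta2, smooth muscle actin, was among their brightest at 14.38 ± 0.08, with Tagln, an actin-binding protein, at 13.50 ± 0.12, whereas Kcnmb1, a subunit of a potassium channel, and the pericyte gene Rgs5 stood at 9.14 ± 0.07 and 8.51 ± 0.18.

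Endothelial genes lay at the middle of the range. Of 20, 15 were above background, none in the top or the bottom group, with a median 0.13 ± 0.17 above all members, or -0.75 with undetected genes at the floor. Emcn, a sialomucin of veins and capillaries, led at 12.14 ± 0.03, before the tight junction gene Cldn5 (11.83 ± 0.15) and the receptor gene Flt1 (11.17 ± 0.18). Kdr, the main receptor for vascular endothelial growth factor, stood at 9.06 ± 0.05 and Xlkd1 (now Lyve1), a lymphatic marker, at 8.53 ± 0.23. Cdh5 and Vwf, which define endothelium, were not above background on all 3 arrays.

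The surface epithelium list had 10 of 15 genes above background and a median of -0.41 ± 0.07 relative to all members. Its keratins Krt19 and Krt8 stood at 10.77 ± 0.10 and 10.41 ± 0.11, and the uroplakin genes Upk3b and Upk1b at 10.02 ± 0.15 and 7.82 ± 0.60. The brightest of the list was Sbsn, suprabasin, at 12.58 ± 0.04. Msln and Cdh1, commonly used to define this epithelium, did not pass.

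Of the blood cell lists, that of macrophages had the largest share of genes above background. Of 20 genes, 13 were above background, with a median 0.96 ± 0.23 above all members, a list just under the bright limit. The value was 0.52 without the ADSC-ovary array, 0.53 when a spot flag of 100 was required, 1.08 when every probe of a gene was averaged and -0.22 with undetected genes at the floor. The complement genes C1qa and C1qb stood at 12.59 ± 0.07 and 12.50 ± 0.10 and the lysozyme genes Lyzs (now Lyz2) and Lyz (now Lyz1) at 12.06 ± 0.11 and 12.02 ± 0.38. Emr1 (now Adgre1), the F4/80 antigen, was faint at 8.23 ± 0.21, and Csf1r did not pass. Of 18 lymphocyte genes, 4 passed, all below the median member, from Nkg7 (9.58 ± 0.40) to Igj (now Jchain, 7.96 ± 0.11), and Cd3e did not. Of 16 neutrophil genes only Hp, haptoglobin, passed (8.68 ± 0.18).

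Of 13 erythroid genes 4 passed. The globin genes Hba-a1 and Hbb-b1 read 12.86 ± 0.37 and 11.80 ± 0.39, with SDs well above the median of 0.15 over all members. All 15 genes of the MHC class I and II list were above background, with a median 1.01 ± 0.11 above all members, led by H2-Q1 (12.72 ± 0.23) and B2m (12.30 ± 0.20). This list was bright by the narrowest margin: the value was 0.97 without the ADSC-iv array, 0.93 with normexp, 0.79 with the flag and 0.31 when every probe of a gene was averaged.

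Of the neighbouring tissues, oviduct was seldom detected, while fat genes were above background about as often as the 41.1% of all named genes. Of 20 oviduct and cilia genes 4 passed, all below the median member and led by Krt18 (9.79 ± 0.21), which surface epithelium shares. The oviduct glycoprotein gene Ovgp1 and the cilia regulator Foxj1 did not pass. Of 17 adipocyte genes 8 (47.1%) passed, with a median of -0.75 ± 0.09 relative to all members. Lpl, lipoprotein lipase (12.48 ± 0.06), and the nuclear receptor Pparg (11.87 ± 0.06) were bright, and the fat droplet gene Plin (now Plin1, 9.68 ± 0.29) and the fatty acid carrier Fabp4 (8.42 ± 0.23) were not. Adipoq, which defines fat cells, did not pass.

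The brightest lists of all were those of shared cell machinery. Of 64 genes for proteins of the cytosolic ribosome, 57 were above background, with a median 3.03 ± 0.05 above all members, 8.19-fold, and 44 of the 57 in the top group, against 10.0% of all members. Among the brightest were Rpl23a (14.32 ± 0.18) and Rpl10a (14.25 ± 0.16). Near the low end was Arbp (now Rplp0, 9.27 ± 0.28), and Rps12, Rps15a, Rpl27a and Rpl41 did not pass. Every cell uses these genes, so a probe at background is not a sign that its gene was silent.

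The respiratory chain list had 72 of 79 genes above background, a median 2.65 ± 0.12 above all members, and 55 of the 72 in the top group. Ndufa12, of complex I, stood at 14.13 ± 0.21, Atp5j2 and Atp5a1, of the ATP synthase, at 13.99 ± 0.29 and 13.88 ± 0.24, and Cox7a2, of cytochrome oxidase, at 13.89 ± 0.06. Its dimmest member was Cox6b2 (8.08 ± 0.10), a subunit form of the testis, and the muscle or testis forms Cox6a2, Cox8b and Cox8c did not pass. The mitochondrial ribosome was less bright, with 69 of 74 genes above background and a median 1.36 ± 0.10 above all members. Mrpl17 led it at 13.58 ± 0.10 and Mrps34 closed it at 8.35 ± 0.05.

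All 32 proteasome genes were above background, with a median 2.28 ± 0.14 above all members. Psma5, of the outer ring of the core, stood at 13.57 ± 0.11, Psmb1, of the inner ring, at 13.56 ± 0.06, and Psmc2, an ATPase of the cap, at 13.47 ± 0.07. Psmd9, an assembly chaperone, was the dimmest at 8.87 ± 0.05. Of 22 cytoskeleton genes 21 passed, with a median 2.55 ± 0.08 above all members. Actb was followed by Vim (14.29 ± 0.11) and Tubb5 (14.26 ± 0.05), and the neuronal tubulin gene Tubb3 was lowest at 9.97 ± 0.21.

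Translation factors (52 of 60 above background, 1.21 ± 0.11 above all members) and splicing genes (25 of 30, 1.19 ± 0.09) were bright by a small margin. Both fell under the limit when a spot flag of 100 was required, with 0.94 for translation factors and 0.82 for splicing, as did translation factors with undetected genes at the floor (0.86) and splicing at 3 background SDs (0.95). Eif5a, a factor for peptide bond formation, stood at 13.90 ± 0.07 and Snrpg, a core protein of spliceosomal particles, at 13.97 ± 0.18. Eif4g3 was the faintest translation factor at 7.76 ± 0.05, and Eef2, which moves the ribosome along the message, did not pass. Lysosome genes (27 of 35) had a median 1.46 ± 0.09 above all members (0.97 with undetected genes at the floor), led by Lamp1 (13.92 ± 0.20) and Psap (13.74 ± 0.42).

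Chaperones and cell cycle genes were detected more often than they were bright. Of 73 chaperone genes 56 passed, with a median 0.64 ± 0.10 above all members (-0.28 with undetected genes at the floor). Of the 56, 16 (28.6%) were in the top group and 6 in the bottom group, each of which holds 10.0% of all members. The 6 are near that share. Hspa8 stood at 13.67 ± 0.08 and Hsp90b1, of the endoplasmic reticulum, at 13.61 ± 0.02, against 8.09 ± 0.36 for Dnajc12. Of 29 cell cycle genes 26 passed, with a median 0.49 ± 0.07 above all members. Pcna, the DNA polymerase clamp, stood at 13.00 ± 0.06, Cdk4 at 12.72 ± 0.18 and Cdc2a (now Cdk1) at 12.36 ± 0.05, and the inhibitors Cdkn1a and Cdkn1c were lowest at 8.20 ± 0.22 and 8.08 ± 0.22.

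Metabolic genes were detected almost completely. Over 4 lists, 80 of 85 genes (94.1%) were above background. All 23 genes of cholesterol synthesis and uptake passed, with a median 1.67 ± 0.07 above all members. Sc5d, a late enzyme of the pathway, stood at 13.90 ± 0.06, Fdft1, which makes squalene, at 12.94 ± 0.13, and Scap, a sterol sensor, at 12.68 ± 0.04. The regulator Srebf2 and the late enzyme gene Dhcr7 were lowest at 8.82 ± 0.32 and 8.72 ± 0.01.

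The other 3 metabolic lists were bright too. Of 19 glycolysis genes 15 passed, with a median 2.53 ± 0.04 above all members (1.19 with its undetected genes at the floor), led by Aldoa (14.39 ± 0.08), Gapdh (13.71 ± 0.10) and Pgk1 (13.57 ± 0.26). The forms of other tissues, Eno2 of neurons and Pklr of liver, did not pass, nor did Hk1 and Pfkl. All 19 genes of the TCA cycle list, which also holds cytosolic forms of its enzymes, passed, with a median 2.0 ± 0.05 above all members. Among these cytosolic forms, Mdh1, a malate dehydrogenase, stood at 14.31 ± 0.22 and Idh1, which makes NADPH, at 13.91 ± 0.03. Of 24 glutathione and antioxidant genes 23 passed, with a median 1.82 ± 0.14 above all members, led by the transferase genes Gsta4 (13.97 ± 0.22) and Mgst1 (13.93 ± 0.21) and the peroxiredoxin gene Prdx1 (13.82 ± 0.13). Txn1, thioredoxin, did not pass.

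Among regulators, zinc finger and Hox genes were dim and the other 3 lists were not. Over 5 lists, 131 of 352 regulator genes (37.2%) were above background, close to the 41.1% of all named genes, and 250 of the 352 were zinc finger genes. Zinc finger proteins (87 of 250) had a median of -1.06 ± 0.05 relative to all members, or -0.90 after normexp, with 16 of the 87 in the bottom group. Zfp764 aside, the next were Zfp575 (12.48 ± 0.21) and Zfp771 (12.30 ± 0.05). Hox genes (9 of 35), which give cells their place along the body axis, had a median of -1.33 ± 0.28 relative to all members, or -0.80 when a spot flag of 100 was required and -0.82 at 3 background SDs. Hoxd9 (11.15 ± 0.39) and Hoxc6 (10.92 ± 0.06) were above the median member and the other 7 below it.

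Nuclear receptors were detected in 14 of 31 cases, with a median of -0.49 ± 0.17 relative to all members. The 3 brightest, Nr5a2 (13.48), Nr5a1 (12.02) and Pparg (11.87), are those already met in granulosa, steroid-making and fat lists. Nr2f2, of stromal cells, stood at 10.87 ± 0.17. Nr0b1, which represses steroid genes, and Nr1h4, the bile acid receptor, were lowest at 7.86 ± 0.37 and 7.68 ± 0.23. The receptors Esr1 and Pgr for oestrogen and progesterone and the glucocorticoid receptor Nr3c1 did not pass.

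Cytokines and chemokines were the third dim list. Of 77 genes 13 passed, with a median of -1.24 ± 0.14 relative to all members. The exceptions were Ccl21c (12.55 ± 0.27) and Ccl21b (12.30 ± 0.22), near-identical genes for a chemokine of lymphatic vessels. Il18 (10.39 ± 0.07) and Cxcl14 (9.97 ± 0.21) followed, and Il31 and Ccl9 closed the list at 8.18 ± 0.20 and 7.98 ± 0.23.

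Immediate early genes (10 of 20) and the insulin-like growth factor system (11 of 16) had medians of 0.07 ± 0.15 and -0.23 ± 0.03 relative to all members. Klf6 (11.19 ± 0.11), Dusp1 (11.08 ± 0.09), Jun and Myc (both 10.83) led the immediate early genes, and Fos and Atf3 did not pass. Of the growth factor genes, Igfbp2 (12.32 ± 0.10) and the receptor gene Igf1r (12.19 ± 0.13) followed Igfbp7, and the ligand gene Igf1 stood at 10.20 ± 0.14. When a spot flag of 100 was required, 7 of its genes were left and their median was 1.43 above all members.

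Genes of other tissues were rarely above background. Over 11 lists, 22 of 1422 genes (1.55%) were above background, against 41.1% of all named genes. Of 1009 olfactory receptors 3 passed, of 180 vomeronasal and taste receptors 2, of 43 hair keratins 1, of 22 testis genes 1, and none of 23 lens and photoreceptor genes or of 15 pituitary and thyroid genes. The brain list had 2 of 21, striated muscle 3 of 26, liver 3 of 21, pancreas and gut 4 of 22 and defensins 3 of 40.

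A few genes of these lists were nevertheless bright. Defb19, a beta defensin, read 12.85 ± 0.06 and Tnni3, the heart form of troponin I, 12.73 ± 0.19, both in the top group. Olfr11 stood at 11.92 ± 0.17, Trf, the transferrin gene, at 11.85 ± 0.17 and Olfr1202 at 11.52 ± 0.38. The first 4 of these 5 had SDs of 0.19 or less, so their brightness repeated on all 3 arrays.

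The dimmest named members were close to the background limit and came from no single class. Pigo, an enzyme of the glycolipid anchor, stood at 7.34 ± 0.22, the transcription factor gene Ets1 at 7.52 ± 0.10, the growth factor gene Gdf10 at 7.56 ± 0.21 and the leukocyte receptor gene Cd84 at 7.57 ± 0.15. Mtap7 (now Map7), Wdr47 and Clip1, at 7.58 ± 0.08, 7.59 ± 0.42 and 7.60 ± 0.20, encode proteins of microtubules. The line between member and non-member was thin: Tbxas1, P2rxl1 and Tmprss6 exceeded their limit by less than 1% on their weakest array, and Mylpf, Nek8 and Slc44a2 fell short by less than 1%. Slc44a2, for example, read 251.5, 235.5 and 252 units against limits of 188.4, 235.8 and 227.

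Few members differed between the arrays. In 91 members (1.13%) the highest array was 2-fold or more above the lowest, 36 of them in the dimmest 20% and 3 in the brightest. Mfsd3, a membrane transporter of unknown cargo, had the largest SD, with 8.65, 11.52 and 12.33 on the POF, ADSC-iv and ADSC-ovary arrays. The POF array was the low one. Xrcc2, of recombination repair, was also lowest on the POF array, with 7.92, 10.04 and 10.01. Dhodh, an enzyme of pyrimidine synthesis, read 9.53, 7.83 and 9.78, and Hsd3b4 read 9.35, 11.27 and 10.00, high on the ADSC-iv array as Por was. Olfr1412, with 7.72, 8.36 and 10.28, was the third olfactory receptor above background.

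For these members the red channel moved with the green one. Of the 91, 86 were also above background in Cy5 on all 3 arrays, and in 85 of these (98.8%) Cy5 was higher on the array where Cy3 was higher, although Cy5 held another RNA on each array. Of the 91, 86 rested on 1 probe. Over the 7838 members above background in both channels, the difference between 2 arrays in Cy3 correlated with that in Cy5 with r of 0.48 to 0.58, across genes that share spots and slides. The POF array was the one farthest from the other 2, and lowest, in 47 of the 91. The count was 28 without the POF array, 63 without the ADSC-iv array and 48 without the ADSC-ovary array. A range over 2 arrays tends to be narrower than over 3, so these falls do not measure the part of 1 array. The part of spot, slide and RNA in these differences was not tested.

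**Figure D4:**
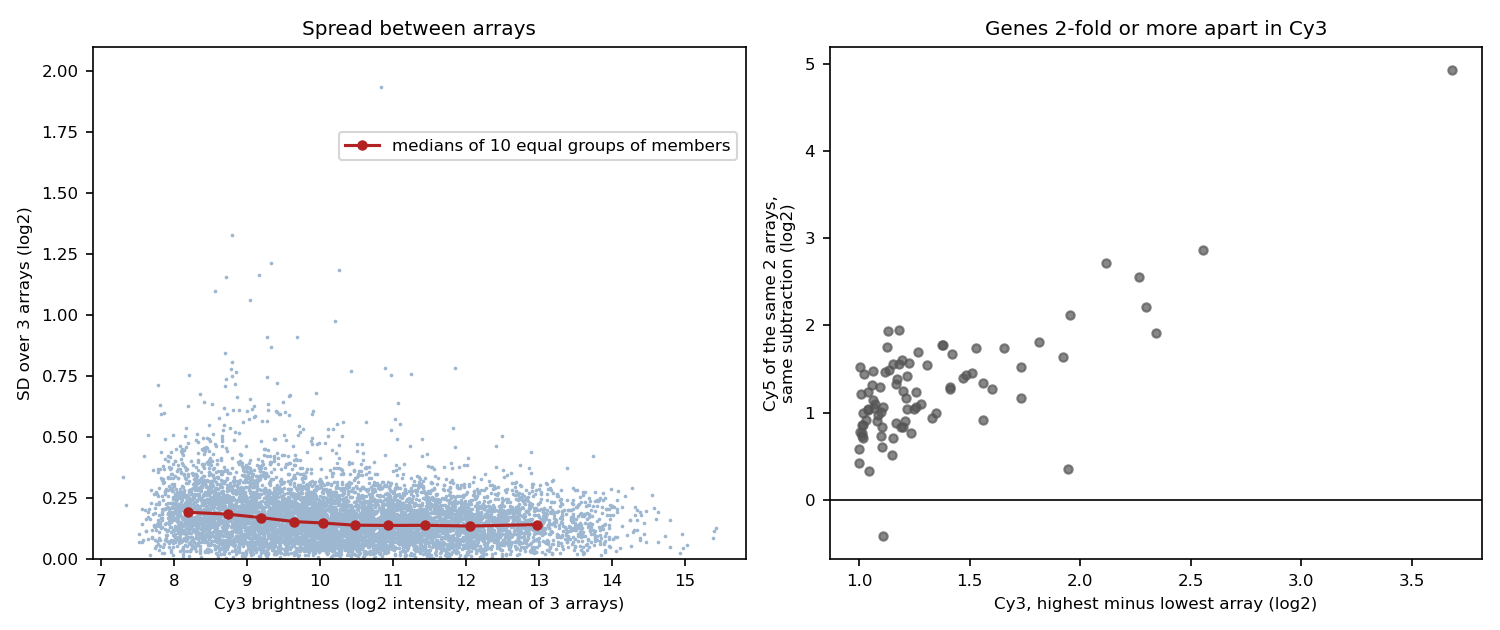
Left, SD of the Cy3 log2 intensity over 3 arrays for each of the 8025 members against its mean, with the medians of 10 equal groups of members in red, which fall from 0.19 in the dimmest to 0.14 in the brightest. Right, the 86 members 2-fold or more apart in Cy3 and above background in Cy5: difference between the highest and lowest Cy3 array (horizontal) and the Cy5 difference between the same arrays (vertical), which is above 0 in 85.

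Bright genes tended to be short. By the RefSeq table of GRCm38.p6, the median span of a gene from start to end was 10.3 kb in the top group of members, 14.8 kb in the next of 10 equal groups, 20.2 to 29.3 kb in the other 8, and 16 kb among genes above background on no array. These are medians over genes, with no test.

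Promoters of the lists differed in their content of the dinucleotide CG. Most vertebrate CG pairs are lost by methylation and mutation except in CpG islands, which are typical of genes used in all cells. Over the 250 bases before the gene start, the median ratio of observed to expected CG was 0.38 for all 27025 promoters in the RefSeq table (GRCm38.p6). For lists with a promoter for at least 80% of their members it was 0.77 for the respiratory chain (61 of 72 members matched), 0.78 for the mitochondrial ribosome (60 of 69), 0.79 for the proteasome (26 of 32) and 0.88 for splicing (22 of 25). The bright ovarian lists lay far lower, at 0.47 for granulosa (17 of 20) and 0.46 for luteal genes (15 of 17). Genes of other tissues that were above background on no array were lower again, at 0.10 for olfactory receptors (855 of 1001), 0.20 for liver (15 of 17) and 0.21 for hair keratins (32 of 39).

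The contrast can be read in the 150 bases before the start of 5 genes, 5′ to 3′ on the gene's strand, with every CG in capitals. Inha and Cyp11a1 were taken from the bright ovarian genes, Psma5 and Ndufa12 from bright shared machinery and Olfr1 from undetected lists. Olfr1, an odorant receptor, was above background on no array. The CG ratios of Inha and Cyp11a1 over 250 bases, 0.23 and 0.22, lay below the granulosa and luteal medians, so neither is typical of its list. Those of Psma5 and Ndufa12, 0.90 and 1.05, lay above the proteasome and respiratory chain medians of 0.79 and 0.77. That of Olfr1 was 0, below the 0.10 of olfactory receptors. The contrast between the 5 sequences is therefore wider than that between the list medians.
Inha (chr1:75507459-75507608, plus strand): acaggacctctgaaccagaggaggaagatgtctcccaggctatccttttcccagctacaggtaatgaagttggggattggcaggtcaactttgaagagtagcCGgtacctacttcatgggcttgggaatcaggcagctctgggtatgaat
Cyp11a1 (chr9:57997874-57998023, plus strand): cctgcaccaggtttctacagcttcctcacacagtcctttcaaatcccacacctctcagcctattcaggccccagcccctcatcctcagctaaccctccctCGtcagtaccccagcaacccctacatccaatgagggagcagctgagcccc
Psma5 (chr3:108256776-108256925, plus strand): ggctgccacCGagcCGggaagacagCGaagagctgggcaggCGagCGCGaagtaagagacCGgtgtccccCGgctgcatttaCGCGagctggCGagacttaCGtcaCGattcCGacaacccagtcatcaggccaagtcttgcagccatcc
Ndufa12 (chr10:94198885-94199034, plus strand): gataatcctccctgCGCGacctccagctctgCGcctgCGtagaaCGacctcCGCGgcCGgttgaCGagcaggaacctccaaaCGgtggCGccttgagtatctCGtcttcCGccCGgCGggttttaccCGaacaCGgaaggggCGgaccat
Olfr1 (chr11:73399496-73399645, minus strand): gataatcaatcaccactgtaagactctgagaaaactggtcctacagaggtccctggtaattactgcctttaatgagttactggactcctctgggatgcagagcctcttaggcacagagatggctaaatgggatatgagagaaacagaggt

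The 150 bases of Inha and of Cyp11a1 hold 1 CG each, those of Psma5 14 and those of Ndufa12 18, and those of Olfr1 none. All 4 expressed genes were in the top group, so a bright spot went with both kinds of promoter. Bright ovarian genes also had both kinds: the same stretch of the luteal gene Hsd17b7, not shown, holds 17 CG, with a ratio of 0.86. Over the 10 groups of brightness the median CG ratio ranged from 0.71 to 0.77 and was 0.35 in genes above background on no array. Those values are a description only, since under 80% of members had a promoter in the table.

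The TATA box, searched as TATAAA on the gene's strand and starting 40 to 21 bases before the gene start, was in 2.22% of all promoters. It was in 18 of the 32 undetected hair keratin genes with a promoter (56.2%). The other undetected lists with a promoter for at least 80% of their genes had it less often. It was in 3 of 20 striated muscle genes, 1 of 15 liver genes, 11 of 855 olfactory receptors (1.29%) and no vomeronasal or taste receptor. Of the undetected lists under that limit, pituitary and thyroid genes had it in 7 of 11 (63.6%) and pancreas and gut genes in 4 of 13 (30.8%). Among members it was in 1 of 17 granulosa, 1 of 15 luteal, 2 of 19 cytoskeleton and 2 of 20 glutathione and antioxidant genes. None of the matched respiratory chain, proteasome or mitochondrial ribosome genes had it. A match is no proof of a site in use.

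**Figure D5:**
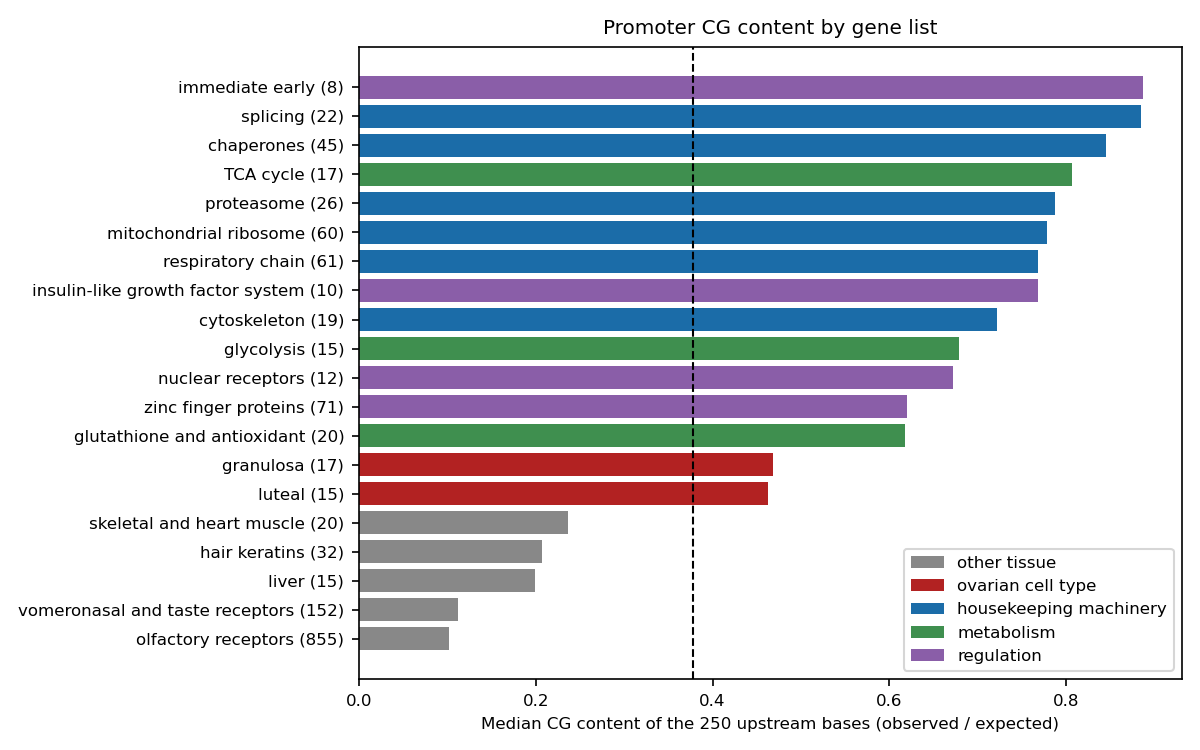
Median ratio of observed to expected CG in the 250 bases upstream of the gene start, for the lists with a promoter for at least 80% of their genes (number with a promoter in brackets). Bars for other tissues are over genes above background on no array, all others over members; the dashed line is the median of all promoters in the table, 0.38. Granulosa and luteal genes lie between the lists of other tissues and those of shared machinery.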

How the data were processed

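The 3 deposited scanner files were used, 1 per array, each with 33696 spots in 48 print blocks. Per the file headers, they hold, in both channels, a spot's median intensity with its surrounding background's median and SD, without subtraction or normalization. Image analysis used LuxScan 3.0, per the series' design text, and RNA was linearly amplified and dye-labelled, per the labels' protocols. The deposited flag, a score per spot (100 or its negative), has no stated meaning and entered as an alternative only. The authors' processed log ratios, which compare treated with untreated ovary, were not used here.

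From these intensities, Cy3 spot median minus background median was kept where it exceeded 2 background SDs on all 3 arrays, log2-transformed, shifted to the mean of the arrays' medians, and averaged over passing probes of an array name. No Cy3 spot of a named probe was saturated. Of 19518 names, 14166 were current symbols, 3898 synonyms and 1454 were kept as they stood; 7528 probes have no name. Of the members, 1216 have clone or predicted names. Python 3.11.15, numpy 2.4.6, pandas 2.3.3, R 4.3.3 and limma 3.58.1 (normexp, offset 50, as an alternative) were used, and the scripts were tested on simulated data. The number of arrays limits the precision, and with 1 WT label throughout no test was made.

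The 46 gene lists and the members were chosen with earlier results of these data known. Genes were named by rule: the 20 brightest and 10 dimmest members, the 10 with the largest SD, the 5 whose probes differ most, the 4 brightest and 2 dimmest of each list (up to 3 brightest in lists of other tissues), and 3 on each side of the threshold; clone and predicted names were counted, not named. A few genes that the rule names are not reported here. Other genes in the text, such as those at background, Star, Lhcgr, Cyp19a1, Fshr, Gdf9, Akr1cl and Mgarp, were chosen after their values were seen. Alternatives were 1 or 3 background SDs, the flag, current symbols, normexp, quantile and print block scaling, no shift, all probes of a gene, undetected genes at the floor, and leaving out each array.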

Additional observations from a re-analysis of the deposited data

Results flagged for a closer look

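Outside the named genes, 1428 of 7528 probes with no gene name (19%) were above background in Cy3 on all 3 arrays, and 160 of them (11.2%) were as bright as the brightest 10.0% of members. They drew attention because they carry signal that no list can use. Their median, 10.10, lay close to the 10.26 of the members, and their median SD over arrays was 0.18.

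Of 48 control spots named 50%DMSO, 45 were above background on all 3 arrays, whereas none of 768 blanks was. Their median intensities were 1449, 1201 and 1498 units on the POF, ADSC-iv and ADSC-ovary arrays, near the 1230 units of the median member. Of 336 spots named Empty, 5 were above background on all 3 arrays and 102 on at least 1. What these spots hold is not stated in the labels, and their part in the brightness of gene probes was not tested.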

How the results depend on the processing

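The number of members was 8025 and ranged from 5798 (a flag of 100 required) to 9245 (1 background SD), with 8083 to 8463 when 1 array was left out. The median SD over arrays, 0.15, was 0.13 with normexp, 0.12 with print block medians, 0.23 with no shift of the arrays, and 0.11 to 0.14 when 1 array was left out. The count of members 2-fold or more apart, 91, was 50 at 3 background SDs, 30 with normexp, 208 with no shift and 55 with a flag of 100. It was 28 to 63 when 1 array was left out (28 without the POF array). Both the median SD and this count tend to be smaller over 2 arrays than over 3. Their falls on leaving out an array therefore do not measure the part of that array. The number of bright lists, 17, ranged from 14 to 18. That of dim lists, 3, was 2 at 3 background SDs, with normexp and with a flag of 100. It became 6 when genes not above background were placed at the floor, where the adipocyte, immediate early and nuclear receptor lists joined the dim ones. No list changed the sign of a call. Lists that crossed a limit in some setting were granulosa (0.41 to 0.95 where lost), MHC (0.31 to 0.97 where lost), smooth muscle, macrophage, translation factors, splicing, lysosome (0.97 at the floor), adipocyte, immediate early, nuclear receptors, the growth factor system, Hox genes and zinc finger proteins. The cause of these changes was not tested. The flag as a setting for lists and for spread, and all settings for the detected share of single lists, were chosen after seeing the data. No paired analysis was possible because all arrays carry the same untreated group and no groups were compared. The threshold set the depth limit: its median was 177 to 199 units above background.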

Other observations

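Beyond the lists, the next 20 places in the order of brightness, chosen after their values were seen, held 18 named genes. Besides genes of lists described above, they included the ferritin heavy chain gene Fth1 (14.39 ± 0.19), the antizyme gene Oaz1 (14.35 ± 0.12), whose product limits polyamines, the histone genes Hist2h2ac (14.35 ± 0.16) and Hist1h2ak (14.27 ± 0.29), and the RNA-binding protein genes Cnbp (14.25 ± 0.16), Ybx1 (14.11 ± 0.05) and Pabpc1 (14.08 ± 0.28). Histone transcripts mostly lack a poly(A) tail, and which step of the labelling captured them was not tested.

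By chromosome, the share of names above background ran from 35.8% on chromosome 7 to 48.1% on chromosome 4 among autosomes. The X chromosome had 245 of 656 names above background (37.3%), with the highest median of the nuclear chromosomes, 0.31 above all members. The difference was not tested.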
